A study of Triticum aestivum with 6 samples.

Results

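Methionine cycle and cysteine synthesis in the filling wheat grain are represented here by 3 genes, which are all the rows of the count table that carry the identifiers SAMS, SAHH or CYS1, of 102602 identifiers in all. RNA came from inferior grains, the later-set and usually poorly filled grains of a spike, of field-grown bread wheat (Triticum aestivum), cultivar Xinong 538. The titles put 3 libraries in a group named CK and 3 in a group named SPD, and spell out neither name. All 6 libraries share 1 treatment entry, exogenous spermidine, and 1 stage entry, days 8 and 16 after anthesis, so neither the treatment nor the stage of a single library can be read from the labels. No allele, genotype or transgene other than the cultivar is named, and nothing says how many plants or plots each library pools. All 3 genes passed the filter on low counts, and are among the 50136 identifiers that did.

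Plants make cysteine from O-acetylserine and sulphide with cysteine synthase, and cysteine supplies the sulphur of methionine and of glutathione. S-adenosylmethionine synthetase joins methionine to the adenosyl part of ATP, and the product is the methyl donor of most methylation reactions. Its decarboxylated form gives the aminopropyl group that turns putrescine into spermidine. S-adenosylmethionine itself is also the starting point of ethylene. Methyl transfer leaves S-adenosylhomocysteine, an inhibitor of methyltransferases, which S-adenosylhomocysteine hydrolase clears into homocysteine and adenosine so that methionine can be formed again. CYS1 is cysteine synthase, SAMS the synthetase and SAHH the hydrolase.

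The libraries held 10561224 to 13088727 counts. SPD replicate 3 stood apart, at 140 on a first principal component with 35.4% of the variance, against -42.6 to -20.7 for the other 5 libraries. All 7 markers of starchy endosperm and all 6 of green pericarp were detected in every library. The endosperm markers summed to 14985 to 15793 CPM (counts scaled to the size of a library by TMM) in CK and 13784 to 18529 in SPD, and the pericarp markers to 430.1 to 550.6 and 437.3 to 900.0 CPM. Both highest sums belonged to SPD replicate 3, where 6 of the 6 pericarp markers but 4 of the 7 endosperm markers had their highest value. There the endosperm sum rested on AVNLA, an avenin-like storage protein, with 6444 CPM against 3082 to 4104 in the other libraries. Without AVNLA it was 12085 CPM, against 10702 to 12034, and AGP-L, a subunit of ADP-glucose pyrophosphorylase, had its lowest value in that library. The 3 genes were chosen by their identifiers and with their measured CPM in the CK and SPD libraries already known, so those levels are given as a description and support no call.

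CYS1 was at a near constant level in 5 libraries and almost missing from the remaining one. In CK it had 76.6 CPM in replicate 1, 81.6 in replicate 2 and 77.6 in replicate 3, while the SPD libraries held 82.5, 83.5 and 5.35 CPM in the same order. SPD replicate 3 was therefore the single low library, and SPD replicates 1 and 2 were both above the 3 CK libraries by a small margin. In reads, CYS1 had 906 to 1087 counts in those 5 libraries and 55 in SPD replicate 3, for which counting error alone gives a 95% Poisson interval of 4.03 to 6.96 CPM. The median of the other 5 libraries was 15.3 times the level in SPD replicate 3, with a counting interval of 11.7 to 20.3 that takes the error of the low library only. Reads from PCR copies are not independent molecules, so such intervals cover counting error only. In bulk grain, fewer cells of a type and less RNA per cell cannot be told apart.

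**Figure D1:**
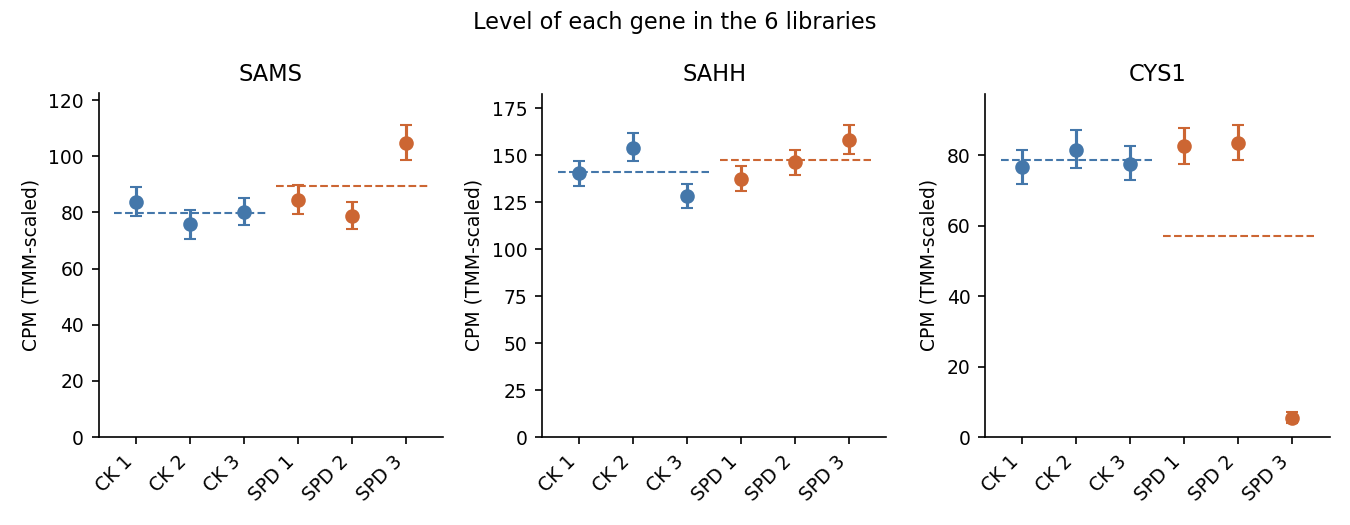
TMM-scaled CPM (vertical axes, from 0) of SAMS, SAHH and CYS1 in the 3 CK and 3 SPD libraries. Points are libraries, bars are 95% Poisson intervals of the count and dashed lines are group means. CYS1 is at 76.6 to 83.5 CPM in 5 libraries and at 5.35 CPM in SPD replicate 3, while SAMS and SAHH have their highest values in that library.

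The group mean of CYS1 in SPD stands for none of its libraries. CYS1 averaged 78.6 ± 2.67 CPM over the CK libraries and 57.1 ± 44.8 over the SPD libraries (± SD, n = 3 each), and SPD replicates 1 and 2 alone averaged 83.0 CPM. The coefficient of variation of CYS1 was 3.395% in CK and 78.5% in SPD. Over the 18391 tested genes that averaged 10 CPM or more, the median was 10.6% in CK and 14.5% in SPD. CYS1 varied less than most of them in CK, where 7.82% had a lower value, and more than most in SPD, where 150 genes had a higher one. Over the 5 libraries without SPD replicate 3, CYS1 stood at 80.3 ± 3.09 CPM (SD, n = 5), a coefficient of variation of 3.85%. Counting error in each of these 5 libraries was 3.03% to 3.32%.

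The fitted difference of CYS1 between the groups took its sign from that library. With 6 libraries, edgeR gave a log2 fold change of -0.46 for SPD minus CK (SE 0.62, 95% interval -1.82 to 0.91). Without SPD replicate 3 it was 0.082 (-0.16 to 0.33). Without SPD replicate 1 or 2 it was -0.81 and -0.83, since the low library then made up more of the group. limma-voom, which averages on the log scale, put it at -1.15 with 6 libraries.

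SAMS, the step that makes S-adenosylmethionine, varied less than most genes in CK and about as much as the middle of them in SPD. Of the 18391 genes that averaged 10 CPM or more, 16.2% had a lower coefficient of variation than SAMS in CK and 53.1% in SPD. The level of SAMS in CK was 83.9 CPM in replicate 1, 75.7 in replicate 2 and 80.2 in replicate 3. The SPD libraries had 84.5, 78.8 and 104.8 CPM in that order. The CK and SPD values overlapped, and SPD replicate 3 was highest, its counting interval of 98.6 to 111 CPM lying above those of the other 5 libraries. SPD replicates 1 and 2 were within 1 CPM of the range of CK. The order from low to high was CK replicate 2, SPD replicate 2, CK replicate 3, CK replicate 1, SPD replicate 1 and SPD replicate 3, and the counting intervals of each neighbouring pair overlapped in the first 5. Group means of SAMS were 79.95 ± 4.07 CPM for CK and 89.4 ± 13.7 for SPD (± SD, n = 3 each). Its log2 fold change was 0.16 (SE 0.13, 95% interval -0.14 to 0.46), and 0.033 (-0.22 to 0.29) without SPD replicate 3.

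SAHH, which removes the by-product of methylation, had the narrowest range of the 3 genes over all 6 libraries. Within CK alone it was the least steady, with a coefficient of variation of 9.18% against 5.09% for SAMS and 3.395% for CYS1. Within SPD the coefficients were 7.12% for SAHH, 15.3% for SAMS and 78.5% for CYS1. The CK libraries had 140.3 CPM in replicate 1, 154.0 in replicate 2 and 128.2 in replicate 3, and those of SPD had 137.4, 146.1 and 158.3 CPM. Values of both groups alternated along the range: CK replicate 3 was lowest, SPD replicate 3 highest and CK replicate 2 next to it. Group means of SAHH were 140.8 ± 12.9 CPM for CK and 147.2 ± 10.5 for SPD (± SD, n = 3 each). Its log2 fold change was 0.064 (SE 0.12, 95% interval -0.20 to 0.32), and 0.013 (-0.23 to 0.26) without SPD replicate 3. Its highest library was 1.23 times its lowest, against 1.38 for SAMS and 15.6 for CYS1. The median of that ratio was 1.46 over the genes that averaged 10 CPM or more, of which 12.5% had a lower ratio than SAHH and 99.6% a lower one than CYS1.

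None of the 3 genes was called in the fit across all 50136 tested identifiers, where the quasi-likelihood test of edgeR called 0, or 0%, at an adjusted p of 0.05. The adjusted p was 0.998 for each of the 3, and the smallest over all genes was also 0.998. At an unadjusted p of 0.05, 0 of the 3 and 3.59% of all tested genes were below it. The Wald test of DESeq2 called 0 of the 3 and 0.00599% of all genes, and limma-voom called 0 of the 3 and 0% of all. The CK and SPD values overlapped in all 3 genes. Over all tested genes, 9.49% had groups that did not overlap, so overlap in 3 genes does not set them apart from the rest. The intervals of SAMS and SAHH leave out a log2 fold change of 1 in either direction, and that of CYS1 does so only without SPD replicate 3. For scale, the median absolute log2 fold change over all tested genes was 0.20. Since the labels name no separate plants, plots or cultures, every p here rests on library-to-library spread that may be technical.

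**Figure D2:**
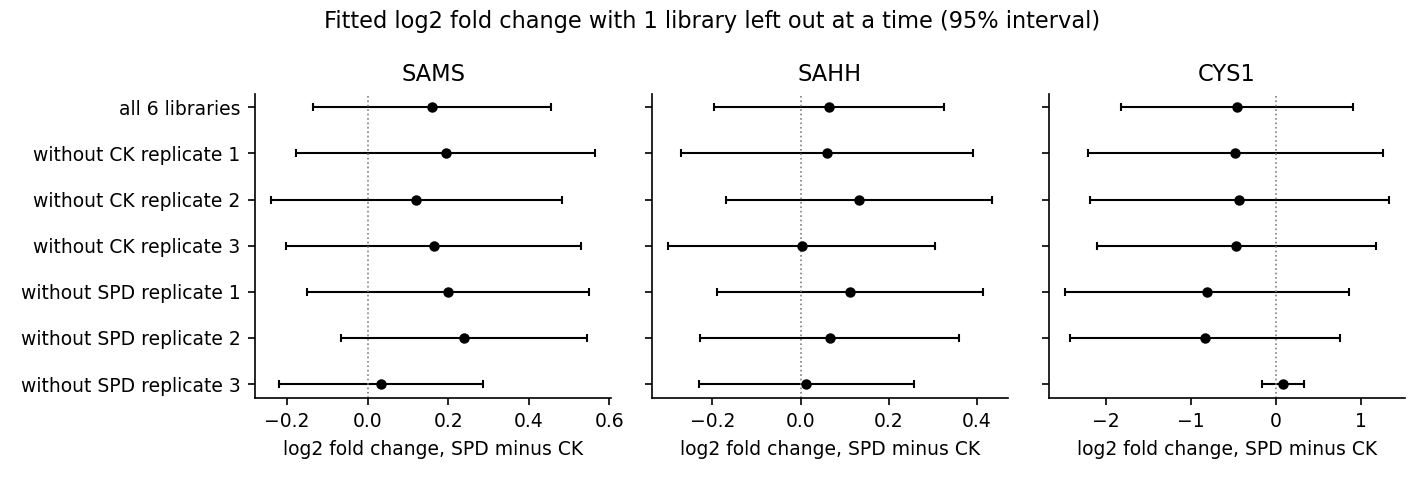
Fitted log2 fold change of SPD minus CK (horizontal axes, each gene with its own scale) of SAMS, SAHH and CYS1, with all 6 libraries and with 1 library left out at a time. Points are edgeR estimates and bars 95% intervals. The CYS1 estimate goes from -0.46 to 0.082 without SPD replicate 3 and its interval narrows to -0.16 to 0.33.

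Set against the median of the other 5 libraries, the 3 genes moved apart in SPD replicate 3. On the log2 scale, after adding 0.5 CPM, the ratio to that median was 0.38 for SAMS, 0.17 for SAHH and -3.81 for CYS1. In that library 88.6% of the 18391 genes that averaged 10 CPM or more had a lower ratio than SAMS, 75.4% a lower one than SAHH and 0.277% a lower one than CYS1. In the other 5 libraries the ratios of all 3 genes stayed between -0.19 and 0.13. The range from the 25th to the 75th percentile of the genes was 0.45 log2 units wide in SPD replicate 3 and 0.26 to 0.33 in the other libraries, so ratios were wider there for genes at large.

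**Figure D3:**
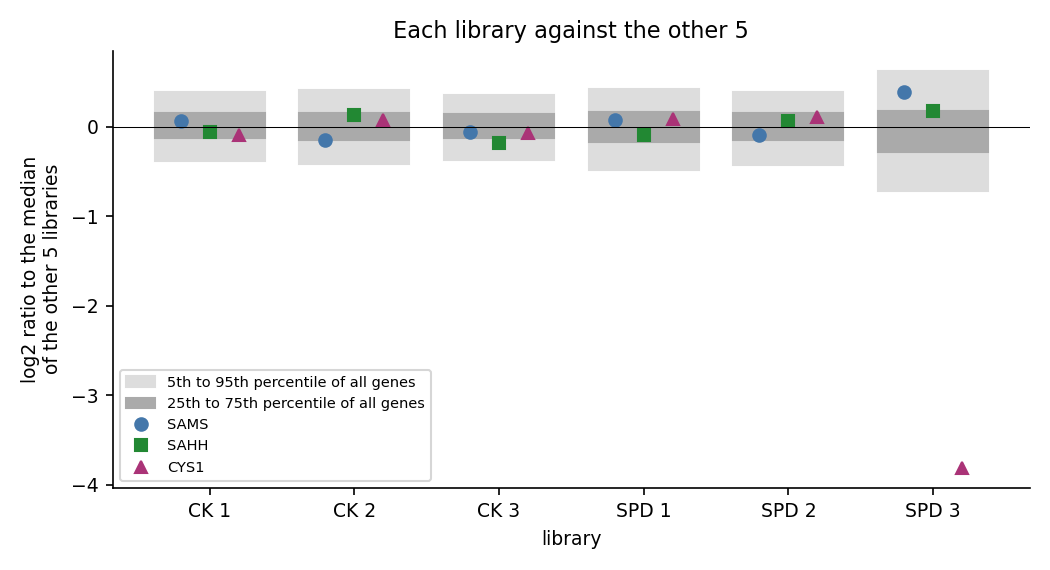
Log2 ratio of each library to the median of the other 5 (vertical axis) for SAMS, SAHH and CYS1 in the 6 libraries (horizontal axis). Grey boxes give the percentile ranges named in the key over 18391 genes that averaged 10 CPM or more. CYS1 lies at -3.81 in SPD replicate 3, and all other points lie between -0.19 and 0.38.

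Ratios of 2 genes within a library do not depend on how libraries are scaled. Counts of SAHH per count of SAMS were 1.67, 2.03 and 1.597 in the CK libraries and 1.63, 1.85 and 1.51 in the SPD libraries, in order of replicate, or 1.77 ± 0.23 and 1.66 ± 0.18 (± SD, n = 3 each). The groups overlapped, with the highest ratio in CK replicate 2 and the lowest in SPD replicate 3. Counts of CYS1 per count of SAMS were 0.913 to 1.08 in the 5 other libraries and 0.051 in SPD replicate 3. The lengths of the counted transcripts are not given, so these ratios compare libraries and not the abundance of 1 gene with another.

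CYS1 was not alone in being nearly absent from SPD replicate 3. In a search made after the values were seen, a gene counted as nearly absent from a library when it was more than 10-fold below the lowest of the other 5, all at 5 CPM or more. In SPD replicate 3 this held for 95 of 23596 genes, or 0.403%, and in each of the other 5 libraries for 0 of at least 23097. CYS1 was the only one of the 95 with a gene symbol, and ranked the fifth by its level in the other libraries, which had a median of 14.98 CPM over the 95. Few identifiers can carry a symbol, since only 75 of the 23596 name no chromosome arm or chromosome. Of the 95, 41 had no count at all in SPD replicate 3, whereas CYS1 kept 55 counts. CYS1 was 14.3-fold below the lowest other library, so it is in the set at a limit of 5-fold, which took 143 genes, and not at 20-fold, which took 72.

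The other 94 identifiers named 28 chromosome arms or chromosomes, and no single arm held most of them. By share of the genes that could be in the set, 3DS came first with 11 of 337, or 3.26%, then 5BS with 5 of 294, or 1.70%, and 2BL with 12 of 854, or 1.41%, where the share over all genes was 0.403%. By subgenome there were 35 from A, 39 from B and 20 from D. The genes of each subgenome that could be in the set were not counted, so these counts do not rank the subgenomes. The identifier of CYS1 names no arm, and the entry of RefSeq's gene table that matched it by synonym is on chromosome 5A. The opposite pattern, at least 5 CPM and more than 10-fold above the highest other library, was found for 70 identifiers in SPD replicate 3 and for at most 1 in any other library. None of the 70 has a symbol, which most identifiers lack. Of the 95 nearly absent genes, edgeR called 0 between SPD and CK, and it called 0, or 0%, of all 50136 tested identifiers. That 0 therefore says nothing particular about the 95. SPD replicate 3 also had the highest sum of the pericarp markers, 900.0 CPM, and the part of that in the CYS1 value was not tested. The labels give all 6 libraries the same cultivar, and whether the grains of SPD replicate 3 match the others in cultivar and batch was not tested, and this limits what its CYS1 value of 5.35 CPM says about SPD.

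**Figure D4:**
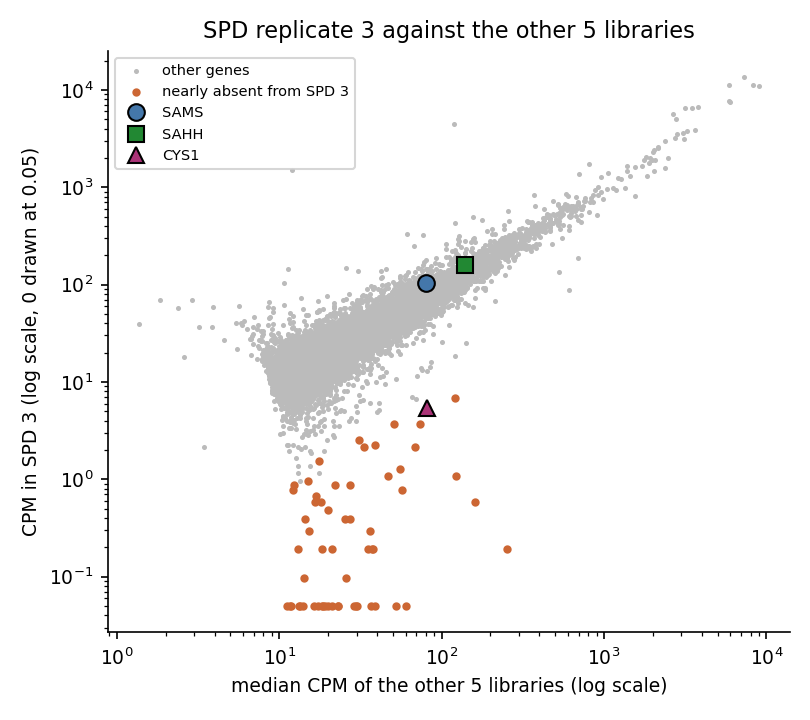
CPM in SPD replicate 3 (vertical axis, log scale, 0 drawn at 0.05) against the median CPM of the other 5 libraries (horizontal axis, log scale) for 18391 genes that averaged 10 CPM or more. Coloured points are the nearly absent genes that reach that mean, and larger symbols SAMS, SAHH and CYS1. SAMS and SAHH lie within the cloud of genes, and CYS1 lies below it at 5.35 against 81.6 CPM.

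Few other genes of sulphur and S-adenosylmethionine metabolism could be followed, since most identifiers carry no gene name. Of 99 symbols listed for the methionine cycle, sulphur assimilation, glutathione, polyamines and other users of S-adenosylmethionine, 5 occurred in the table, and 2 of those beside the members. None of the 23 symbols listed for polyamine synthesis and breakdown occurred, so spermidine synthase and S-adenosylmethionine decarboxylase were not analysed here. A further 4 symbols of these pathways were added once the symbols in the table had been seen. Of the 6 genes beside the members, 5 were tested and 0 were called by edgeR, where the call rate over all genes was 0%. OMT2, the untested one, had 3 to 8 counts per library.

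OMT1, an O-methyltransferase that uses S-adenosylmethionine, had 167.7, 182.4 and 130.5 CPM in the CK libraries and 151.8, 145.4 and 188.4 CPM in the SPD libraries, in order of replicate. The groups overlapped, and SPD replicate 3 was again highest. Its log2 fold change was 0.015 (SE 0.15, 95% interval -0.32 to 0.35). PCM, a methyltransferase that repairs damaged aspartyl residues in proteins, was at 2.77 to 4.21 CPM in the 5 other libraries and 6.03 CPM in SPD replicate 3. Its log2 fold change was 0.098 (SE 0.38).

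On the side of glutathione, which is built from cysteine, GSTZ1, a glutathione transferase, had 27.2 to 31.8 CPM in the 5 other libraries and 42.2 CPM in SPD replicate 3. SAMS, SAHH, OMT1 and PCM were also highest in that library, and PCS1, GSTA1 and the untested OMT2 were not. The share of all genes that were highest in that library was not counted. There the log2 ratio of GSTZ1 to the median of the other 5 libraries was 0.52. The 95th percentile over the genes that averaged 10 CPM or more was 0.63. A link between GSTZ1 and the low CYS1 value was not tested. The log2 fold change of GSTZ1 was 0.093 (SE 0.18). PCS1, phytochelatin synthase, which makes metal-binding peptides from glutathione, had 14.7, 9.55 and 15.5 CPM in the CK libraries and 9.89, 12.0 and 11.9 CPM in the SPD libraries, in order of replicate. The groups overlapped, and its log2 fold change was -0.24 (SE 0.22). GSTA1, another glutathione transferase, had 0 to 14 counts per library and a log2 fold change of -0.087 (SE 0.95).

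Likeness was measured as the root mean square difference of log2 CPM profiles over the 6 libraries, each centred on its own mean, among 66 other genes with a symbol and an average of 10 CPM or more. The profile of SAMS was closest to LTP3, a lipid transfer protein (0.040), TUBB2, a beta-tubulin (0.060), and BMY1, a beta-amylase (0.063), against a median of 0.23 over the 66. That of SAHH was closest to H2A-10, a histone (0.073), PINB, a puroindoline of grain hardness (0.074), and COR410, a dehydrin (0.079), against a median of 0.22. The SAHH profile itself varied by only 0.10 around its mean, so a flat profile would lie nearly as close, while that of SAMS varied by 0.15. SAMS, LTP3, TUBB2 and BMY1 were all highest in SPD replicate 3, at 1.31, 1.35, 1.25 and 1.39 times the median of the other 5 libraries. No gene with a symbol had a profile near that of CYS1. The closest, TH123, a histone, CATA, a catalase, and HSP16.9B, a small heat shock protein, differed from it by 1.04, 1.21 and 1.21, where the median was 1.47 and the CYS1 profile itself varied by 1.41 around its mean. TH123, CATA and HSP16.9B were lowest in SPD replicate 3, at 0.49, 0.69 and 0.60 times the median of the other 5 libraries. HSP16.9B was nearly as low in SPD replicate 1, at 0.65 times the median of the others. SPD replicate 3 therefore weighed heavily in the likeness to SAMS and to CYS1.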

How the data were processed

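The authors deposited raw counts per gene identifier, whole numbers without normalisation, for 6 libraries. The submitters' processing notes list HISAT2 but no version of it. The counting program, annotation, genome build and strand setting remain not given in the sources used here. Reads of near-identical copies in the 3 subgenomes may be shared out or lost, so values of SAMS, SAHH and CYS1 as single copies are uncertain, and antisense reads could not be told apart. RNA was extracted with TRIzol, per the labels' protocols. Groups and replicate numbers come from the sample titles.

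The analysis ran under edgeR 4.0.16 (R 4.3.3): filterByExpr (min.count 10, min.total.count 15), TMM, and the two-sided quasi-likelihood test over 50136 identifiers with Benjamini-Hochberg adjustment, threshold 0.05. CPM are TMM-scaled. Alternatives used limma 3.58.1 and DESeq2 1.42.0, other scalings and filters, the replicate block, and leaving out libraries. Members, lists and tests were chosen with earlier results of these data known. The named genes are the members, the listed pathway symbols found and tested, and the 3 symbols most like each member; GSTZ1, GSTA1, PCM and OMT2 were added after the symbols had been seen. By symbol or synonym, 3 of the 3 members matched an entry of RefSeq's gene table for IWGSC CS RefSeq v2.1. No library was a copy of another: chi-square values per degree of freedom between libraries were 4.12 to 16.4. Counts were simulated from these libraries for 50136 genes, of which 200 with a mean of 5 CPM or more were altered. The edgeR test of SPD minus CK recovered 1% of these 200 at a 1.5-fold change, 54.5% at 2-fold and 96.5% at 4-fold. False calls numbered 0, 2 and 7 in that order. No simulated library stood apart as SPD replicate 3 did.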

Additional observations from a re-analysis of the deposited data

How the results depend on the processing

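The log2 fold changes of SAMS and SAHH stayed positive and uncalled under 3 other scalings, 2 other filters, robust estimation, DESeq2, limma-voom, the block, the removal of the 100 most abundant genes and each library left out. With 1 library left out at a time, they ran from 0.033 to 0.24 for SAMS and from 0.0028 to 0.13 for SAHH. CYS1 ran from -0.83 to 0.082, with its sign turned at 0.082 without SPD replicate 3 alone, and no alternative called it. It lay at -1.15 in limma-voom and at -0.97 with the replicate number as a block, where SAMS lay at 0.15 and SAHH at 0.066. Deviations from the group means correlated at 0.015, -0.067 and -0.038 between libraries sharing a replicate number. That showed no pairing by number, but with 3 libraries a group it cannot exclude one. The block called 0 genes, as did the fit without it. The count of called genes was 0 under all alternatives except the Wald test of DESeq2, with 3, and ran from 0 to 1 with 1 library left out, the 1 being without CK replicate 3. Chosen after seeing the data, other limits for near absence from SPD replicate 3 gave 143 genes at 5-fold, 72 at 20-fold, 250 with a floor of 1 CPM and 30 with a floor of 20 CPM, and 97 with library size alone; at the floor of 1 CPM, up to 28 genes met the rule in another library. With 3 libraries a group, the test on simulated counts recovered 1% of genes changed 1.5-fold and 54.5% of those changed 2-fold. Those rates cover altered genes with a mean of 5 CPM or more, not those below it, and are not specific to the members.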
